A study of Mus musculus with 6 samples.

Results

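The circadian clock genes described here are 10 genes of the molecular clock and its direct output, chosen by name and found by their symbols in the table of estimated counts: Per1, Per2, Cry1, Cry2, Arntl, Clock, Nr1d1, Nr1d2, Dbp and Tef. All 10 were among the 17459 genes of that table and among the 13490 genes that passed the filter on low counts. The table comes from RNA sequencing of microglia, the resident macrophages of the brain, in 3 libraries of Mir137 conditional knockout mice (cKO) and 3 of their controls (cWT). The cKO mice were Mir137loxP/loxP;Tmem119-CreERT2 and the cWT mice Mir137+/+;Tmem119-CreERT2, all of them male C57BL/6J mice aged 8 weeks. Every mouse therefore carried the Cre recombinase, which is expressed from the microglial gene Tmem119 and needs tamoxifen to act, and tamoxifen was injected on 7 days at 7 to 8 weeks of age. The labels name 4 mice in the isolation of microglia and do not say how mice fall into libraries, so p-values measure only the spread between these libraries, which may be technical. The hour of the day at which tissue was taken was not given in the sources used here. Its part in the values below was not tested.

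The clock of mammalian cells is a loop of transcription and translation. CLOCK and BMAL1, the product of Arntl, form a pair that binds E-box sequences and switches on the Per and Cry genes, whose proteins return to the nucleus and inhibit that pair. A second loop runs through the nuclear receptors REV-ERB alpha and beta (Nr1d1 and Nr1d2), which are switched on by the same pair and repress Arntl through ROR elements. Dbp and Tef encode bZIP transcription factors that carry the rhythm to output genes through D-box sequences. The transcripts of Dbp, Nr1d1 and the Per genes are known to swing widely over the day, while that of Clock varies little in most tissues, and in microglia clock genes are linked to inflammatory and metabolic responses.

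RefSeq (GRCm38.p6) gives 14 promoter windows for 9 of the 10 genes, each from 250 bases before the annotated start to 50 bases after it. They are shown because the elements that tie these genes together are read there. The E-box CACGTG was present in 4 of the 14 windows, which belong to Per1, Cry1 and Tef, and in 7.15% of all 32851 windows of RefSeq genes. The ROR element, searched as TAGGTCA and TGGGTCA on both strands, was found in 1 of the 14 windows, of Arntl, and in 6.45% of all windows. The D-box, searched as TTATGTAA and TTACGTAA on both strands, was in none of the windows of these genes and in 1.06% of all. Each of the windows below is written 5′ to 3′ on the strand of its gene, with the element in capitals.
Per1, chr11:69098699-69098998, plus strand: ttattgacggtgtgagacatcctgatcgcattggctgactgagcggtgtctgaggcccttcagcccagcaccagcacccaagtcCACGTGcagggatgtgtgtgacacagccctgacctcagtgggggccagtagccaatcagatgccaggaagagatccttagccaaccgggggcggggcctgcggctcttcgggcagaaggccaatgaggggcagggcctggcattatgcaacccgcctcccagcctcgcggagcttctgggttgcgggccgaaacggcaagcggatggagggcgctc
Cry1, chr10:85185005-85185304, minus strand: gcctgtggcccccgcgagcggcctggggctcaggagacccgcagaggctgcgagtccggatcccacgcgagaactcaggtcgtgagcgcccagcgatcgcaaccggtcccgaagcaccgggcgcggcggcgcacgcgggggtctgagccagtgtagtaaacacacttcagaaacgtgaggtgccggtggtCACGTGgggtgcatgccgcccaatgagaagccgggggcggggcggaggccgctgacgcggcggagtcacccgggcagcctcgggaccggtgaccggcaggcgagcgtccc
Tef, chr15:81811164-81811463, plus strand: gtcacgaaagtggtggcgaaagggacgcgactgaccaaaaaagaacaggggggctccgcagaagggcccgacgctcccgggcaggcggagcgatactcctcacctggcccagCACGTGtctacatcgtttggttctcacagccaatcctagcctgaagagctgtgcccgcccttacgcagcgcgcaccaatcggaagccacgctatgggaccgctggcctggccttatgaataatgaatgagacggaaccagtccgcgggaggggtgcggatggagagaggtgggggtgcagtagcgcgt
Arntl, chr7:113207261-113207560, plus strand: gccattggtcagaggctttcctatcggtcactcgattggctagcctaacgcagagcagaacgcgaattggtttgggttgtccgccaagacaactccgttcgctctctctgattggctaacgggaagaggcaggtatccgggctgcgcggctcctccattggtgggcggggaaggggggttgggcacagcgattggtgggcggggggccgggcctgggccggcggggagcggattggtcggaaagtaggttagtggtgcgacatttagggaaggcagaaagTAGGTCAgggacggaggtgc
In Per1 the E-box begins 166 bases before the annotated start, in Cry1 60 and in this window of Tef 138 bases before it, and the ROR element of Arntl begins 30 bases after its start. A match of letters is a description of the window and not evidence of binding.

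The gene removed in cKO encodes miR-137, and the sequences by which it could pair with clock transcripts are shown next. The mature strand, with its seed (bases 2 to 8) in capitals, and the matches to bases 2 to 7 in 3′ UTRs (the longest that annotation gives for the gene, GENCODE M21, GRCm38), with the 6 matching bases in capitals, are as follows.
miR-137-3p: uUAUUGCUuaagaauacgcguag
Per2: ttcacccagtGCAATAtatttgtgtg
Clock: atttcatttgGCAATAtcattctcta
Nr1d2: gtatctttttGCAATAtaaagtttgc
Tef: ttaattaagtGCAATAaaattttcta
The full match to bases 2 to 8, AGCAATA, was in none of the 10 UTRs, and in 10.8% of the 12615 tested genes with an annotated 3′ UTR. The shorter match GCAATA was in 4 of 10, against 23.2% of those genes. In Tef it is followed by an A, and matches of that form were not counted apart. All 4 are among the genes called lower in cKO below, where 36.5% of all genes tested were called lower. The share called lower among all genes with the shorter match was not computed. When edgeR was fitted with length and GC offsets, none of the 4 was called (adjusted p from 0.08074 in Per2 to 0.7851 in Tef). Whether these matches have a part in the differences was not tested. The UTRs of these 4 genes are also long, with 1889 bases in Per2, 6831 in Clock, 2631 in Nr1d2 and 3182 in Tef. Of the other 6 genes only Cry2, with 2177 bases, has one over 1120 bases.

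Clock genes were lower in cKO microglia or did not pass the test. Expression was compared as CPM (a gene's counts per megacount of its library), scaled between libraries by TMM, with edgeR's quasi-likelihood test, two-sided, and p-values adjusted by the Benjamini-Hochberg method over all genes tested. Of the 10 genes, 5 fell (Per2, Clock, Nr1d2, Tef and Cry2) and 0 rose at an adjusted p under 0.05, while over all genes 72.1% were called, 36.5% lower and 35.6% higher. At an unadjusted p under 0.05 the counts were 7 lower and 0 higher, against 74.1% of all genes in either direction, 37.6% lower and 36.5% higher. At an adjusted p under 0.05 DESeq2 called 4 lower and 0 higher, against 59.5% of its genes, 29.5% lower and 30% higher. At that same threshold limma-voom called 6 lower and 0 higher, against 72.7% of its genes, 37% lower and 35.8% higher. At an unadjusted p under 0.05 DESeq2 gave 5 lower and limma-voom 7, with 0 higher in each. The matching unadjusted shares of all genes were not computed for these tests. The CPM ranges of the genotypes were apart in 5 of the 10 genes, all lower in cKO, against 37.9% of all genes lower and 36.7% higher without overlap. The median log2 fold change of the 10 genes was -0.49, and that of all genes tested was -0.02. With so many genes called in each direction, 5 of 10 lower is not far from the background. For genes called higher, 0 of 10 stands beside 35.6%. The fold changes also go with transcript length, as set out after the single genes. The median transcript of the 10 has 4189.5 bases, against 3000 over all genes tested. Once length and GC content were entered as offsets, none of the 10 was called lower and Per1 was called higher.

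**Figure D1:**
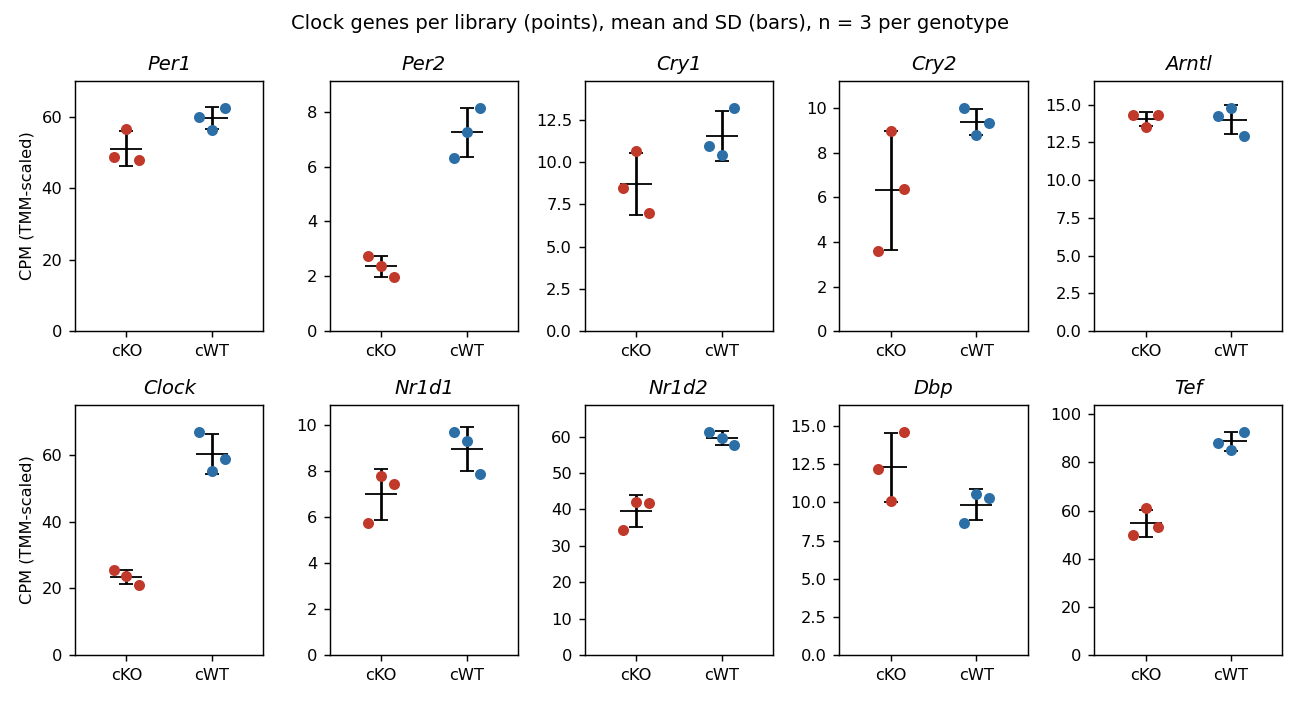
CPM of the 10 clock genes in each library (points), with the mean and SD of 3 libraries per genotype (bars), cKO on the left of each panel. The cKO and cWT points are apart for Per2, Clock, Nr1d1, Nr1d2 and Tef, and mixed for Per1, Cry1, Cry2, Arntl and Dbp.

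Of the activators, Clock fell and Arntl did not pass the test. Clock (chromosome 5, 76209868 to 76304792), which encodes the partner of BMAL1, had 25.4, 23.8 and 21.0 CPM in the cKO libraries, against 67.1, 55.1 and 58.9 CPM in the cWT libraries. Every cKO library lay below every cWT library, at a fold change of 0.387, and the log2 fold change was -1.37 (SE 0.12, edgeR adjusted p = 6.663e-09). Arntl (chromosome 7, 113207465 to 113314126) had 14.3, 13.5 and 14.3 CPM in cKO, against 14.3, 14.8 and 12.9 CPM in cWT. The genotypes overlapped fully, and its log2 fold change of 0.01 (SE 0.14, adjusted p = 0.9629) was the smallest in size of the 10. On the TMM scale Arntl also varied least among the cKO libraries, with a coefficient of variation of 3.21%.

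Of the repressors, Per2 showed the largest difference of the 10 genes. Per2 (chromosome 1, 91415982 to 91459324), a period gene whose loss in mice shortens and then abolishes the daily rhythm of activity, was counted 28, 27 and 26 times in cKO and 119, 142 and 161 times in cWT. This made 2.73, 2.39 and 1.97 CPM in cKO, against 6.33, 7.27 and 8.14 CPM in cWT, and the log2 difference was -1.62 (SE 0.24, adjusted p = 6.694e-06). No library of cKO reached the lowest of cWT, and Per2 had the lowest level of the 10 genes, at percentile 21.5 of mean CPM among genes tested.

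Per1 (chromosome 11, 69095217 to 69109960), a paralog of Per2 that also responds quickly to light and glucocorticoids, did not pass the test. It had 48.8, 56.7 and 48.0 CPM in cKO and 60.1, 56.5 and 62.6 CPM in cWT. The second cKO library lay just above the lowest cWT library, and the log2 fold change was -0.22 (SE 0.10, adjusted p = 0.05743). Leaving out that library, cKO replicate 2, gave -0.29 (adjusted p = 0.02689), a call.

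The cryptochromes, which encode the main inhibitors of the CLOCK and BMAL1 pair, had lower means in cKO with overlap between the genotypes. Cry1 (chromosome 10, 85131700 to 85185064) had 8.47, 10.6 and 6.98 CPM in cKO, against 10.96, 10.4 and 13.2 CPM in cWT, and its log2 difference was -0.41 (SE 0.18, adjusted p = 0.05174). Cry1 stood at -0.25 without cKO replicate 3 (adjusted p = 0.2108) and at -0.56 without cKO replicate 2 (adjusted p = 0.01786), a call. It was also called by limma-voom (adjusted p = 0.04262) and without a filter on low counts (adjusted p = 0.02902). Cry2 (chromosome 2, 92403646 to 92434043) had 3.60, 8.94 and 6.38 CPM in cKO, against 10.001, 8.80 and 9.31 CPM in cWT. Its cKO libraries spread widely, with a coefficient of variation of 42.4% against 6.41% in cWT, and the second of them lay within the cWT range. Cry2 fell by 0.56 in log2 units (SE 0.24, adjusted p = 0.04185), and this call was not held by DESeq2 (adjusted p = 0.05873). Without cKO replicate 1, the lowest library, Cry2 was at -0.30 (adjusted p = 0.1869), and leaving out cKO replicate 3 or any of the cWT libraries also ended the call, with adjusted p from 0.0589 to 0.11. Without cKO replicate 2 Cry2 was at -0.87 (adjusted p = 0.004494).

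The REV-ERB genes were both below cWT in every library. Nr1d2 (chromosome 14, 18204054 to 18239127), which encodes REV-ERB beta, had 34.5, 42.2 and 41.9 CPM in cKO and 61.4, 59.7 and 57.7 CPM in cWT. It fell by 0.59 in log2 units (SE 0.11, adjusted p = 6.327e-05), and its cWT libraries were the most even of the 10 genes, with a coefficient of variation of 3.14%. Nr1d1 (chromosome 11, 98767932 to 98775333), which encodes REV-ERB alpha, had 5.74, 7.79 and 7.44 CPM in cKO and 9.73, 9.32 and 7.89 CPM in cWT. The highest cKO library lay just under the lowest cWT library, and the log2 fold change of -0.36 (SE 0.19, adjusted p = 0.09666) did not pass the test. Nr1d1 shares 263 exonic bases with Thra, the thyroid hormone receptor gene on the opposite strand. The strand setting of the counts was not found in the labels. The estimated counts of both genes were whole in every library, and how reads of that stretch were assigned between them was not tested. Thra fell by 0.39 in log2 units (SE 0.15, adjusted p = 0.02403).

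Of the output factors, Tef fell and Dbp did not pass the test. Tef (chromosome 15, 81802421 to 81826863) was the most abundant of the 10 genes, with 49.6, 60.9 and 53.4 CPM in cKO and 88.1, 85.3 and 92.9 CPM in cWT. Each cKO library lay below each cWT library, and Tef fell by 0.70 in log2 units (SE 0.10, adjusted p = 5.957e-06). Dbp (chromosome 7, 45705088 to 45710203), a D-box factor of the same family and in most tissues among the transcripts with the deepest daily swing, had 12.2, 10.1 and 14.7 CPM in cKO, against 8.67, 10.5 and 10.3 CPM in cWT. The genotypes overlapped, and its log2 fold change of 0.33 (SE 0.17, adjusted p = 0.09583) did not pass the test. Dbp stood at 0.19 without cKO replicate 3 (adjusted p = 0.3443) and at 0.47 without cKO replicate 2 (adjusted p = 0.02624), a call. It was the only one of the 10 genes, apart from Arntl, whose estimate was above 0.

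Dbp was the only one of the 10 genes with estimated counts that were not whole, from 114.24 to 193.19 in cKO and from 162.53 to 205.96 in cWT. It shares 539 of 2993 exonic bases with Sphk2, a sphingosine kinase gene on the opposite strand, whose estimates were not whole either. Sphk2 had 39.8, 44.6 and 56.3 CPM in cKO and 60.3, 65.9 and 70.0 CPM in cWT, and the log2 difference was -0.48 (SE 0.12, adjusted p = 0.001701). With offsets for length and GC content Sphk2 stood at 0.10 (adjusted p = 0.3287). The split of reads between Dbp and Sphk2 is therefore uncertain. Overlaps with noncoding genes of the opposite strand were annotated for Cry2 (295 bases), Tef (193 bases) and Arntl (33 bases).

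When libraries were scaled only by their totals, the median over all genes stood at -0.42. On that scale 74.7% of all genes were called, 50% lower and 24.7% higher. Of the 10 clock genes 9 were called lower, Arntl among them at -0.39 (adjusted p = 0.01793), and Dbp stood at -0.07 (adjusted p = 0.7145). With RLE size factors, another scaling between libraries, Arntl stood at 0.03 and Dbp at 0.34, near their TMM values. The signs of Arntl and Dbp therefore differ between these scalings and library totals alone, and neither gene was called with TMM.

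In the authors' deposited table of cKO against cWT, 4 of the 10 genes had an adjusted p under 0.05, all of them lower, against 57.9% of its genes with an adjusted p, 28.7% lower and 29.2% higher. Those 4 were Clock at a log2 fold change of -1.36, Per2 at -1.62, Tef at -0.70 and Nr1d2 at -0.59, and in the same deposited table Cry2 stood at -0.57 with an adjusted p of 0.06055.

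Levels of different genes were compared per length, as CPM per kilobase of annotated transcript. In cKO the order was Tef (12.4 ± 1.31), Per1 (10.9 ± 1.03), Nr1d2 (8.47 ± 0.94), Dbp (6.70 ± 1.24), Arntl (4.73 ± 0.15), Cry1 (2.87 ± 0.61), Nr1d1 (2.57 ± 0.40), Clock (2.40 ± 0.23), Cry2 (1.59 ± 0.67) and Per2 (0.405 ± 0.065 CPM per kilobase, SD, n = 3). In cWT it was Tef (20.2 ± 0.87), Nr1d2 (12.8 ± 0.40), Per1 (12.8 ± 0.66), Clock (6.19 ± 0.63), Dbp (5.36 ± 0.56), Arntl (4.70 ± 0.32), Cry1 (3.81 ± 0.49), Nr1d1 (3.30 ± 0.36), Cry2 (2.36 ± 0.15) and Per2 (1.24 ± 0.16 CPM per kilobase, SD, n = 3). Clock stood at place 8 in cKO and at place 4 in cWT, and Tef was first and Per2 last in both. Levels per length keep the trend of fold changes with transcript length described below. Clock has the longest transcript of the 10, with 9744 bases, and its log2 fold change was -1.37 without and -0.06 with offsets for length and GC content. In cKO the ranges of neighbours in the order overlapped between Tef and Per1, between Nr1d2 and Dbp, and in the run from Cry1 through Nr1d1 and Clock to Cry2. In cWT they overlapped between Nr1d2 and Per1 and in the run from Clock through Dbp, Arntl and Cry1 to Nr1d1. The order of neighbours within those runs is therefore not resolved. Genes further apart in a run can still differ, as in cWT Clock (5.66 to 6.88) and Arntl (4.35 to 4.97 CPM per kilobase).

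Ratios between clock genes within a library cancel the scaling between libraries, apart from the prior count of 2 added to each gene. The log2 ratio of Per1 over Clock was 0.94, 1.25 and 1.19 in cKO, against -0.16, 0.03 and 0.09 in cWT, a difference of 1.14 with no overlap. The log2 ratio of Per2 over Cry1 was -1.59, -2.09 and -1.76 in cKO, against -0.78, -0.51 and -0.69 in cWT, a difference of -1.16 with no overlap. Both REV-ERB genes stood lower in cKO relative to Arntl, their target, with no overlap. Nr1d2 over Arntl was 1.48 ± 0.19 in cKO and 2.08 ± 0.07 in cWT, and Nr1d1 over Arntl was -1.01 ± 0.26 in cKO and -0.64 ± 0.08 in cWT (log2, SD, n = 3 each). Dbp over Arntl overlapped, with -0.21 ± 0.23 in cKO and -0.51 ± 0.19 in cWT. No p is given for these ratios, since the pairs were chosen among the 10 genes. The ratios keep any trend with transcript length between genes of different length, described next. With offsets for length and GC content, the log2 fold changes were -0.12 for Nr1d2 and -0.21 for Nr1d1 beside -0.0021 for Arntl, and -0.50 for Per2 beside -0.29 for Cry1, closer together than without them. For Per1 and Clock they were 0.78 and -0.06.

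**Figure D2:**
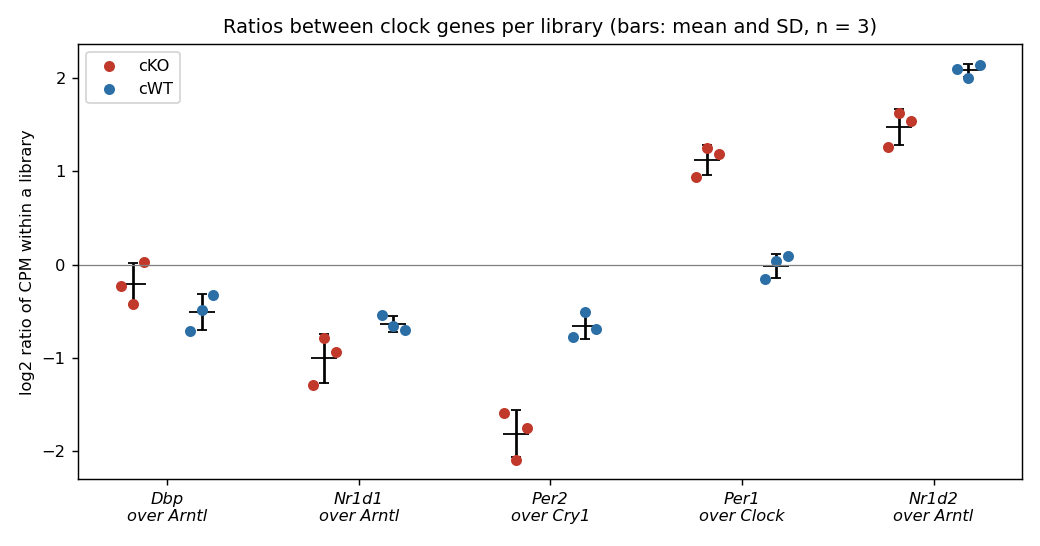
Log2 ratio of CPM between pairs of clock genes within each library (points), with the mean and SD of 3 libraries per genotype (bars), cKO left of cWT in each pair. The genotypes are apart for Nr1d1 over Arntl, Per2 over Cry1, Per1 over Clock and Nr1d2 over Arntl, and overlap for Dbp over Arntl.

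Fold changes in this comparison followed transcript length, with a Spearman correlation of -0.72 across the 12983 genes with a known length, which are not independent replicates. The clock genes lay along that trend. When genes were divided by length into 10 groups of equal size, 9 of the 10 clock genes had a log2 fold change inside the interquartile range of their group, which by construction holds 50% of the genes. Clock, with an annotated transcript of 9744 bases, was at -1.37, and the median of its group, in which 83.2% of genes were called lower, was -1.45. Tef and Nr1d2, with 4403 and 4663 bases, were at -0.70 and -0.59 in a group with a median of -0.68. Dbp, the shortest with 1837 bases, was at 0.33 in a group with a median of 0.62, and Arntl with 2976 bases was at 0.01 in a group with a median of 0.05. Per2, with 5833 bases, was the exception at -1.62, below the lower quartile of -1.40 of a group with a median of -0.99. Per1, with 4671 bases, was at -0.22, near the upper quartile of -0.18 of the same group as Tef and Nr1d2.

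**Figure D3:**
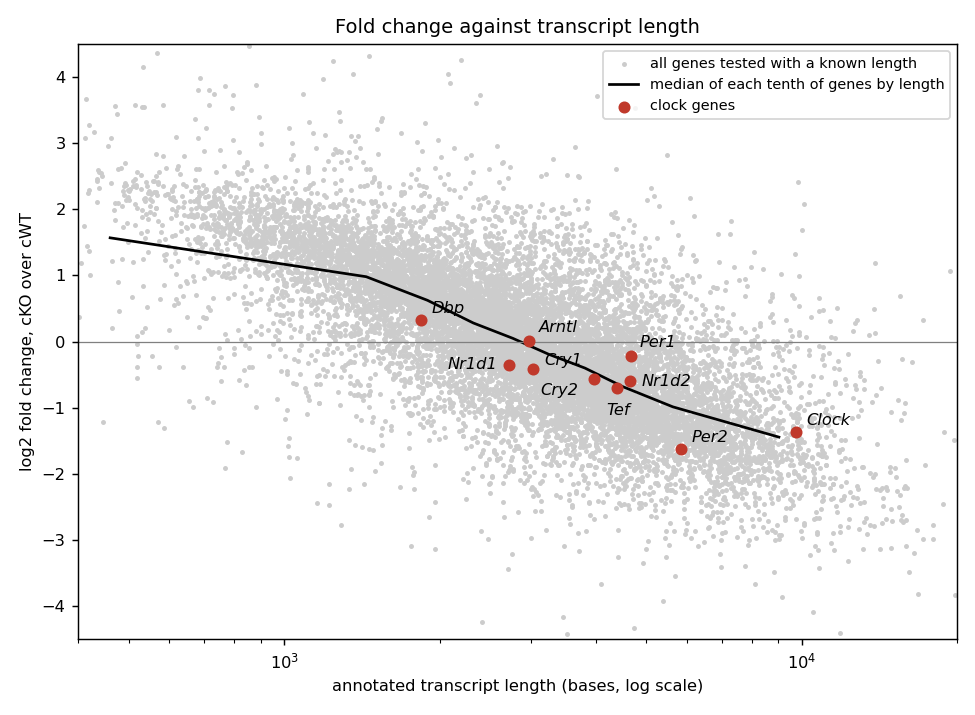
Log2 fold change of cKO over cWT against annotated transcript length (log axis) for all genes tested with a known length (grey), the median of each of 10 equal groups by length (black line) and the 10 clock genes (red). Clock, Tef, Nr1d2 and Arntl lie close to the line and Per1 above it. Per2, Nr1d1, Dbp, Cry1 and Cry2 lie below it, and 48 genes fall outside the axes.

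Offsets for transcript length and GC content, fitted per library, took the correlation with length to -0.083. With them 0 of the 10 clock genes were called lower and 1 higher by edgeR, while 57.1% of all genes were called, 27.5% lower and 29.6% higher. At an unadjusted p under 0.05 it was 1 lower and 1 higher of the 10, and the matching share of all genes was not computed. Clock went to -0.06 (SE 0.09, adjusted p = 0.616), Tef to -0.03 (SE 0.08, adjusted p = 0.7851), Nr1d2 to -0.12 (SE 0.10, adjusted p = 0.3075) and Cry2 to 0.04 (SE 0.22, adjusted p = 0.8895). Per2 kept its sign at -0.50 (SE 0.24, adjusted p = 0.08074). Per1 turned to 0.78 (SE 0.10, adjusted p = 2.57e-07), so the direction of Per1 depends on whether the trend is taken out. With offsets for length alone, an alternative chosen after seeing the data, Per1 was at 0.44 (adjusted p = 0.0007411) and Per2 was called lower at -0.65 (adjusted p = 0.02684). These were the 2 of 10 called with those offsets, against 53.8% of all genes, 25.5% lower and 28.2% higher. The GC content of the 10 transcripts ran from 40.9% in Clock to 59.4% in Per1 and 61.6% in Dbp. The annotated transcript need not be the one expressed, and values with offsets hold as far as its length does.

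**Figure D4:**
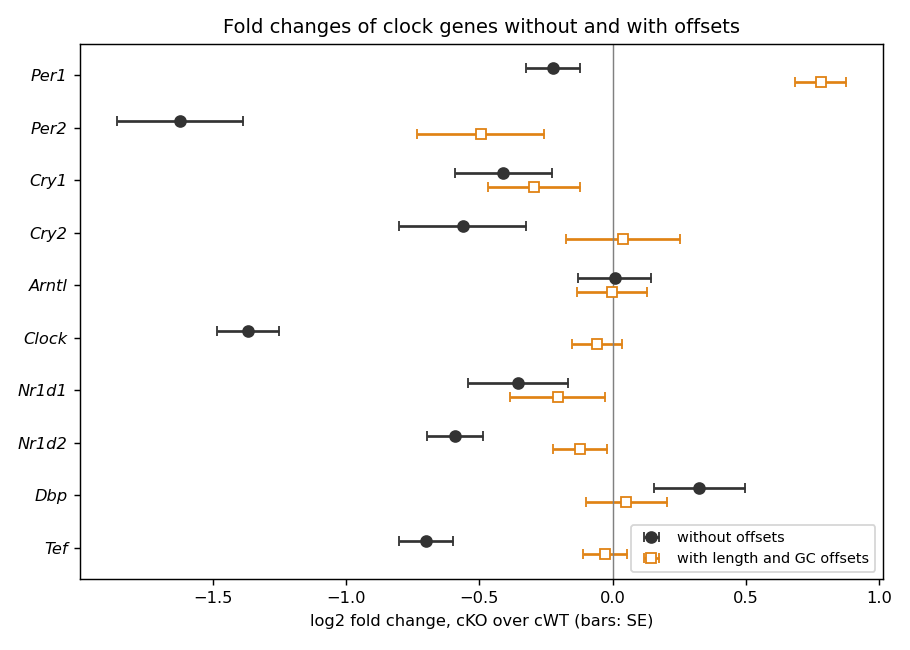
Log2 fold change of cKO over cWT with its SE for the 10 clock genes, without offsets (filled circles) and with length and GC offsets (open squares). Clock, Tef, Nr1d2 and Cry2 are below 0 without the offsets and near 0 with them, Per2 stays below 0 and Per1 changes sides.

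The wider clock network was read from 50 further genes in 5 groups by role, of which 46 were tested. Of these 26 fell and 9 rose, with a median log2 fold change of -0.51, against 36.5% of all genes lower and 35.6% higher. With the offsets 15 fell and 11 rose, with a median of -0.06, against 27.5% of all genes lower and 29.6% higher, which is close to the background. The median transcript of these genes has 4051 bases, against 3000 over all genes tested.

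Of 8 tested genes of the loops themselves, 6 fell and 1 rose (36.5% and 35.6% over all genes). Per3, the third period gene, fell by 2.37 in log2 units (SE 0.21, adjusted p = 9.932e-09), with 2.66 ± 0.58 CPM in cKO and 13.7 ± 1.62 CPM in cWT (SD, n = 3 each). With the offsets Per3 was still lower at -1.27 (adjusted p = 1.293e-05). Npas2, a paralog of Clock, fell by 1.31 (SE 0.53, adjusted p = 0.03239) at under 1 CPM in both genotypes, and Nfil3, a repressor at D-boxes, rose by 0.43 in log2 units (SE 0.15, adjusted p = 0.01674). Neither was called with the offsets. Rora, Bhlhe40, Hlf and Bhlhe41 were singled out after their values were seen. Rora, an activator of Arntl at ROR elements, was at -1.15 without and -1.27 with the offsets. Bhlhe40, a repressor at E-boxes, was at -1.04 and -0.95, and both genes were called in both fits. Hlf was at -0.56 without and 0.28 with the offsets, and Bhlhe41 at -0.94 and 0.07. Both were called lower without the offsets and not called with them. With the offsets Per3, Rora and Bhlhe40 were the 3 of 8 loop genes called lower (27.5% over all genes), and 0 were higher (29.6%).

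Among 10 kinases and phosphatases acting on PER and CRY proteins, 5 fell and 2 rose (36.5% and 35.6% over all genes), and 4 fell and 3 rose with the offsets (27.5% and 29.6%). Gsk3b, a kinase of several clock proteins, fell by 1.77 (adjusted p = 1.289e-10) and Csnk1d, a casein kinase that marks PER proteins for breakdown, by 0.61 (adjusted p = 1.915e-05). The phosphatase genes Ppp1ca and Ppp2ca rose, with log2 fold changes of 0.97 and 0.78. With the offsets Gsk3b stood at -0.46 and Csnk1d at -0.16, the second not called (adjusted p = 0.06393). Ppp1ca then stood at 0.20 and Ppp2ca at 1.89, both called. Of 8 ubiquitin ligase and deubiquitinase genes 5 fell and 0 rose by edgeR (36.5% and 35.6% over all genes), and the same at an unadjusted p under 0.05 (37.6% and 36.5%). With the offsets 3 fell and 1 rose (27.5% and 29.6%). Without the offsets those that fell were led by Usp7 at -0.998 and Fbxw7 at -0.67. Both were called lower with the offsets too, at -0.65 and -1.12.

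Of 13 cofactor genes 9 fell and 2 rose (36.5% and 35.6% over all genes), and 5 fell and 2 rose with the offsets (27.5% and 29.6%). Crebbp and Ep300, the coactivators that acetylate histones at clock target genes, had log2 fold changes of -3.43 and -2.42, and stood at -1.77 and -0.86 with the offsets, called in both fits. Hdac3, the deacetylase that REV-ERB recruits, rose by a log2 fold change of 0.72, and Nono, a partner of PER proteins, rose by 0.54. With the offsets Hdac3 stood at 0.22 (adjusted p = 0.0444) and Nono at 0.34, both called. Of 7 output genes 1 fell and 4 rose (36.5% and 35.6% over all genes), with a median of 0.31, and 0 fell and 5 rose with the offsets by edgeR (27.5% and 29.6%). Tsc22d3, a leucine zipper gene that glucocorticoids also induce, rose by 1.44 (adjusted p = 8.519e-10), with 648 ± 78.8 CPM in cKO and 239 ± 4.35 CPM in cWT (SD, n = 3 each). Pnp, a purine salvage enzyme, rose by 1.43 and Tfrc, the transferrin receptor, fell by 0.55. With the offsets Tsc22d3 stood at 0.84 and Pnp at 1.37, both called, and Tfrc at -0.06, not called. Scaling by library totals turned the sign of 6 of the 46 genes, of which only Por had been called (0.31 against -0.09). On that scale Nfil3 at 0.04, Nono at 0.14 and Cdkn1a, an output gene, at 0.25 kept their sign. They were no longer called by edgeR (adjusted p = 0.8337, 0.1531 and 0.1304).

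**Figure D5:**
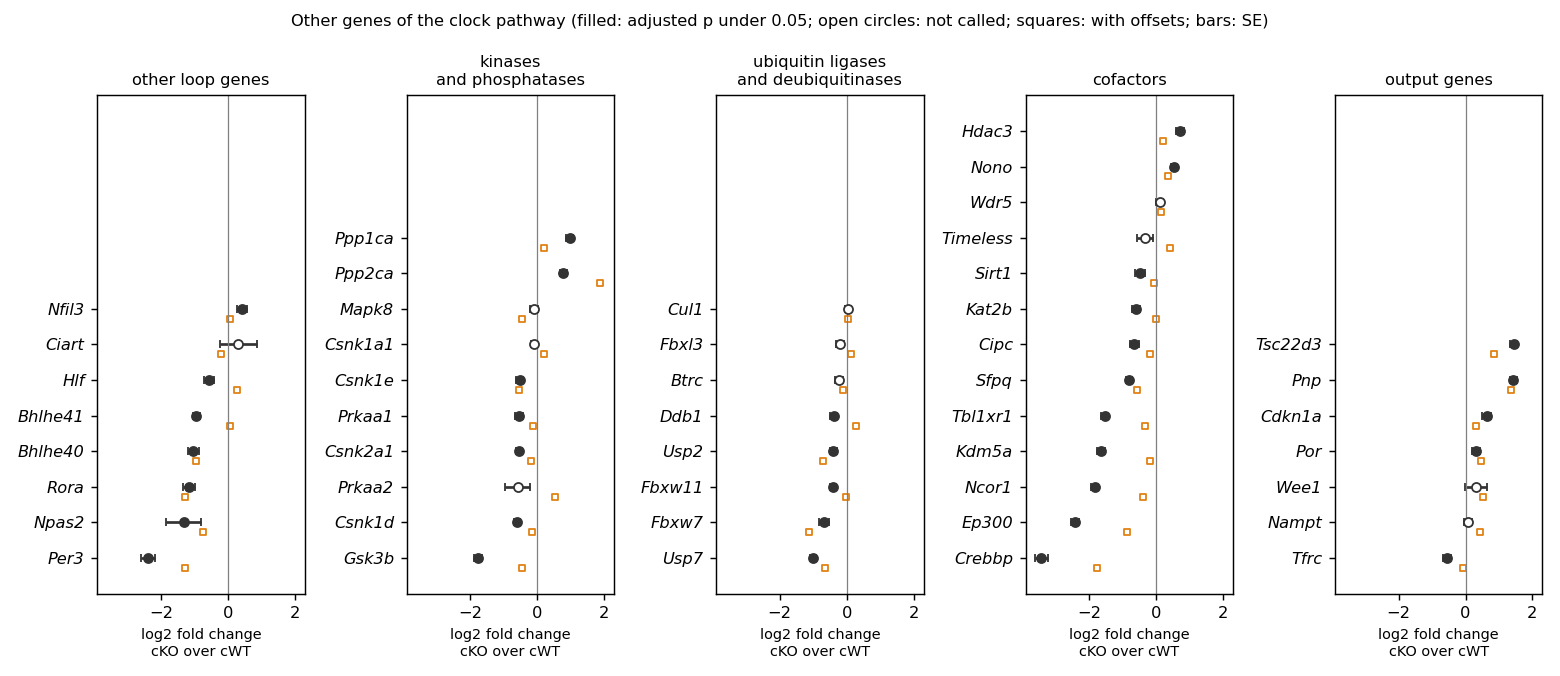
Log2 fold change of cKO over cWT with its SE for 46 further genes of the clock pathway in 5 groups by role (filled circles adjusted p under 0.05, open circles not called), with the value under length and GC offsets beside each (open squares). Per3, Crebbp and Ep300 lie furthest to the left of their groups, and Tsc22d3 and Pnp furthest to the right of the output genes.

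The genes whose profile over the 6 libraries was nearest to that of Arntl were Spata6, Pgm3 and Rpa1, with root mean square distances of 0.037, 0.048 and 0.050 log2 CPM after centring. Those nearest to Dbp were Slc29a1, Cdk2ap1 and Elmod3, at 0.055, 0.056 and 0.058, with log2 fold changes from 0.26 to 0.35.

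Library totals ranged from 12068698 to 15212806 estimated counts in cKO and from 16503817 to 17482042 in cWT, and the sums over the 10 clock genes from 2109 to 2846 in cKO and from 6207 to 6600 in cWT. The authors' deposited table lists Mir137 at 0 on average, so its loss was not checked here. Tmem119, the gene that carries the Cre, was higher in cKO at 1.35 (SE 0.13, adjusted p = 4.763e-08). Of 10 markers of microglia 5 were lower and 3 higher in cKO, with summed levels of 32878 to 37091 CPM in cKO and 35336 to 37565 CPM in cWT. Markers of other cells were also present. The counts and sums of markers given here are without the offsets, where 36.5% of all genes were lower and 35.6% higher. Of 6 tested markers of monocytes and neutrophils 5 were higher and 1 lower in cKO, with summed levels of 9782 to 14579 CPM in cKO against 2843 to 3502 CPM in cWT. Within these sums S100a9 had a mean of 6197 CPM in cKO and 1535 CPM in cWT, and S100a8 of 4642 and 1121 CPM. With the length and GC offsets S100a9 stood at 0.008, S100a8 at 0.009 and Chil3, another of these markers, at 0.13, none of them called. Values with the offsets are not given for the other tested markers of this list, so these do not describe the list as a whole. Of 7 endothelial and mural markers 2 were higher and 5 lower, with sums of 1415 to 1716 CPM in cKO against 1039 to 1258 CPM in cWT. Of 7 astrocyte markers 0 were lower and 2 higher by edgeR, of 7 oligodendrocyte markers 1 and 5, and of 2 tested neuronal markers 0 and 1. Astrocyte markers summed to 407 to 639 CPM in cKO and 389 to 403 CPM in cWT, those of oligodendrocytes to 299.7 to 436 CPM in cKO and 277 to 286 CPM in cWT, and those of neurons to 3.12 to 7.70 CPM in cKO and 3.03 to 4.04 CPM in cWT. Of 7 markers of border macrophages 1 was lower and 4 higher, and of 5 erythroid genes 1 and 0. Markers of border macrophages summed to 761 to 943 CPM in cKO and 798 to 1004 CPM in cWT, and erythroid genes to 102 to 212 CPM in cKO and 113 to 163 CPM in cWT. No listed marker in the table was at 0 in all libraries. Clock genes are expressed in most cell types, and the part of these cells in the differences above was not tested. Fewer cells of a type and less RNA per cell cannot be told apart in such libraries.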

How the data were processed

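The authors deposited estimated counts per gene symbol, 1 column per library, not scaled between libraries. Values that are not whole made up 5.5% to 5.85% of each column, and all were rounded before testing. Per the submitters' processing notes, the tools included STAR 2.7.9a, RSEM and DESeq2 and the build was GRCm38 or mm10, without their roles. The annotation was not given in the sources used here. A second deposited table holds the authors' own comparison, with a base mean (a signal averaged over scaled libraries), log2 fold changes and standard errors, a Wald statistic (a score), p-values and adjusted p-values, per the file headers.

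Genes were tested with edgeR 4.0.16 (R 4.3.3) after filterByExpr with a minimum count of 10, with TMM scaling, robust dispersions and genotype as the only term. Standard errors were derived from the test statistic. Alternatives used DESeq2 1.42.0, limma-voom (limma 3.58.1), other scalings and filters, a replicate block, each library left out, and offsets per library from smooth terms (mgcv 1.9.3) for log transcript length and GC content. Lengths, GC content and 3′ UTRs came from GENCODE M21 (GRCm38), from the principal transcript where 1 is marked, for 96.2% of tested genes. The scripts were tested on simulated data. Log2 CPM used a prior count of 2.

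The 10 genes and all lists were chosen with earlier results of these data known. The genes named by rule were the 10, the 2 largest called increases and decreases of each role group, and the 3 genes nearest to Arntl and to Dbp whose mean log2 CPM was 2 or more. Outside that rule, Rora, Bhlhe40, Hlf and Bhlhe41 were chosen after their values were seen, and Thra and Sphk2 for their overlap. A few more were named to describe labels, scaling or markers. Libraries of 1 genotype differed beyond sampling noise (chi-square over its degrees of freedom 3.84 to 19.3). Promoter and miRNA sequences are from RefSeq (GRCm38.p6).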

Additional observations from a re-analysis of the deposited data

How the results depend on the processing

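Under the alternatives, Clock, Per2, Nr1d2 and Tef were called lower by every scaling, filter and test without offsets and with each library left out. The number of clock genes called was 9 with library size alone (9 lower), and without single libraries it ran from 4 to 8 (4 to 7 lower and 0 to 1 higher), the 8 coming without cKO replicate 2, when Dbp was called at 0.47 (adjusted p = 0.02624). With length and GC offsets 1 clock gene was called (0 lower and 1 higher), against 57.1% of all genes (27.5% lower and 29.6% higher). These clock gene counts were the same with the replicate block added, when 7479 genes were called in all. With length offsets alone, chosen after seeing the data, 2 clock genes were called (1 lower and 1 higher), against 53.8% (25.5% lower and 28.2% higher). Over the 46 tested genes of the wider network, 15 were lower with length and GC offsets (27.5% of all genes). With the replicate block added 16 were lower (3618 over the whole table). With length offsets alone 13 were lower (25.5% of all genes) and 21 were called in all (53.8%). Library size alone left 5 higher (24.7%). Reversed values were Per1 at 0.78 with both offsets, 0.78 with the replicate block added and 0.44 with length alone; Cry2 at 0.039 with both and 0.0088 with the block added; Clock at 0.12, Nr1d2 at 0.070 and Dbp at -0.27 with length alone; and Dbp at -0.071 with library size alone. Arntl was at -0.39 with library size alone, -0.036 without a filter, -0.0021 with both offsets, -0.00055 with the replicate block added, and from -0.052 to 0.050 with single libraries left out. The causes of these changes were not tested.

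The labels do not say whether shared replicate numbers pair the libraries. Correlations of same-numbered deviations from the genotype means, across genes, were 0.0985, 0.0335 and 0.0882. Those between different numbers ran from -0.103 to 0.0167, so each library correlated best with its own number. With 3 libraries per genotype these values cannot decide whether the libraries are paired. With the replicate block Per1 was at -0.23 (adjusted p = 0.03651) and Cry1 at -0.42 (adjusted p = 0.04988), both called. Counts of 26 to 28 for Per2 in cKO limit its precision.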
